A study of Homo sapiens with 4 samples.

Results

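The 1089 regions described here are stretches of open chromatin at the starts of protein-coding genes in HepG2, a cell line of human liver cancer. They were selected on peak calls, being called as peaks in both libraries of cells given tazemetostat and in neither control library. Chromatin accessibility was measured by Omni-ATAC-seq, in which a transposase cuts and tags accessible DNA. The 4 libraries, each from 50000 cells, were 2 of wild-type HepG2 cells labelled untreated and 2 of wild-type HepG2 cells treated with 5 µM tazemetostat, dissolved in DMSO, for 48 h. The labels do not say whether the untreated cells received DMSO, nor whether the replicates came from separate cultures, so the spread between replicates may be technical. The extraction protocol speaks of DNase pretreatment of the tazemetostat-treated cells, and whether the control cells had it is not stated.

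To choose the regions, the peak lists of all 4 libraries were combined, and peaks sharing at least 1 bp were joined, which gave 80551 regions. Of these, 11044 (13.7%) had a peak in both tazemetostat libraries and none in either control. The centre of 10778 regions lay within 1 kb of the annotated 5′ end of a protein-coding gene, here called coding promoter regions, and 1089 of these (10.1%) were tazemetostat-only. They lay at 1202 of 20033 coding genes (6.0%). As presence in these 4 libraries chose the regions, their difference between the groups is a description and was not tested.

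Tazemetostat inhibits EZH2, the catalytic subunit of polycomb repressive complex 2 (PRC2), which methylates lysine 27 of histone H3. This mark is known for keeping CpG-rich promoters of developmental genes silent. In the liver, EZH2 is known to restrain hepatocyte genes during development. CpG-rich promoters are also the usual starts of housekeeping genes, which lack the mark.

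The sequences of 8 member promoters are shown because they cover the kinds of genes described below. BHMT and CDO1 are the study's genes of sulfur amino acid metabolism. GNMT and MAT1A belong to the same pathway and differ in CpG content. LRRC45 had the highest tag count, RPL39 stands for the ribosomal proteins, SOX4 for developmental transcription factors, and PCDHB8 for the clustered protocadherins. Each sequence is the 120 bases directly upstream of the RefSeq start on GRCh38.p14, read in the direction of the gene, and each lay wholly within its region. Capitals mark matches on either strand to the searched motifs, here GGGCGG of the SP/KLF factors, CCAAT of the factor NFY and the box TATAAA. The BHMT stretch is chr5:79111689-79111808 on the plus strand and the CDO1 stretch is chr5:115816660-115816779 on the minus strand. The GNMT stretch is chr6:42960634-42960753 on the plus strand and the MAT1A stretch is chr10:80289659-80289778 on the minus strand. The LRRC45 stretch is chr17:82023185-82023304 on the plus strand and the RPL39 stretch is chrX:119791631-119791750 on the minus strand. The SOX4 stretch is chr6:21593631-21593750 and the PCDHB8 stretch is chr5:141177670-141177789, both on the plus strand.
BHMT: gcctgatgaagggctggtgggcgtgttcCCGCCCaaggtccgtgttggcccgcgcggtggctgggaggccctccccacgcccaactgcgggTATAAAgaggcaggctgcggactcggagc
CDO1: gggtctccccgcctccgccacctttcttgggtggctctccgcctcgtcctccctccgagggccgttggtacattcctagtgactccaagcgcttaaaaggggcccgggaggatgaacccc
GNMT: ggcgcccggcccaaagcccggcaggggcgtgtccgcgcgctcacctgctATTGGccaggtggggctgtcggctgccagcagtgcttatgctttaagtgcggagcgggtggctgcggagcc
MAT1A: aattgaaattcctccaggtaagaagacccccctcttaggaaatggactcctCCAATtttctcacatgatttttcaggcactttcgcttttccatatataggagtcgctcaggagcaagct
LRRC45: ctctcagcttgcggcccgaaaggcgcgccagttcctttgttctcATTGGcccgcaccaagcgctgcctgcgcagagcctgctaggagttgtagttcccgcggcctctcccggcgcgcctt
RPL39: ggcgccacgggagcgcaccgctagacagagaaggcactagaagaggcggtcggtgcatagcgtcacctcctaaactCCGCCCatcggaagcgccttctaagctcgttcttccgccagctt
SOX4: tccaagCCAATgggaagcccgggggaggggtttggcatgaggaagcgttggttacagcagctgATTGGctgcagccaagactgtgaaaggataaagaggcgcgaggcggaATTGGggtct
PCDHB8: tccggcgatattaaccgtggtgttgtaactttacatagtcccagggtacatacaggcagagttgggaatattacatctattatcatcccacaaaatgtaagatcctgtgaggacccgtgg

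The GC content of these stretches ran from 43.3% in MAT1A to 70.8% in GNMT. There were 12 CpG dinucleotides each in LRRC45 and RPL39, 11 in GNMT, 10 in BHMT, 8 in CDO1 and 2 in MAT1A. BHMT carried both an SP/KLF and a TATA match, whereas CDO1 carried no match to any of the 15 motifs searched. SOX4 carried several NFY matches.

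The libraries differed in ways that touch every count below. The controls had 17.2 and 23.8 M mapped tags and the tazemetostat libraries 19.8 and 26.6 M, so that depth overlapped. Tags within peaks were 4.32% and 5.69% of mapped tags in the controls against 11.5% and 9.81% under tazemetostat. The number of coding genes with a promoter peak was 6804 and 8011 in the controls and 10113 and 9534 under tazemetostat. Fragment length was set to 200 bp for both controls and 144 bp for both tazemetostat libraries, and its effect cannot be told apart from that of the treatment. At coding promoter regions called in all 4 libraries, the median normalised tag count (tags in the peak per 10 M mapped tags) was 19.2 and 23.9 in the controls against 40.3 and 33.9 under tazemetostat. The higher values under tazemetostat were therefore also seen at promoters that were open in every library. Of 13 hepatocyte marker genes, 6 had a promoter region called in all 4 libraries, among them APOA1, APOB and HNF4A. No promoter region was called in a control library at ALB, AFP, TTR or SERPINA1. Of the markers of other cells, LYZ was the only leukocyte gene of 5 with such a region, and there was none among 5 endothelial and 5 stellate or fibroblast genes.

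To see how strong the tazemetostat-only promoters were, their tag counts were compared with those of other regions. With tazemetostat the median over members was 15.1 normalised tags in replicate 1 and 13.6 in replicate 2, which correspond to 30 and 36 tags. The middle 50% of regions lay between 10.1 and 22.7 in replicate 1 and between 9.41 and 18.8 in replicate 2. In the same libraries the medians were 11.1 and 10.2 in the 9955 tazemetostat-only regions elsewhere in the genome. They were 22.2 and 18.4 in the 1805 coding promoter regions that were also called in 1 control. The tazemetostat-only promoters thus had a median below those of promoters shared with controls and above that of the tazemetostat-only regions elsewhere. Their peaks were also short, with a median of 400 and 386 bp against 708 and 700 bp at promoters called in all 4 libraries. Whether a peak was called depends on its tag count. The differences from promoters also called in controls therefore partly follow from how the sets were chosen.

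**Figure D1:**
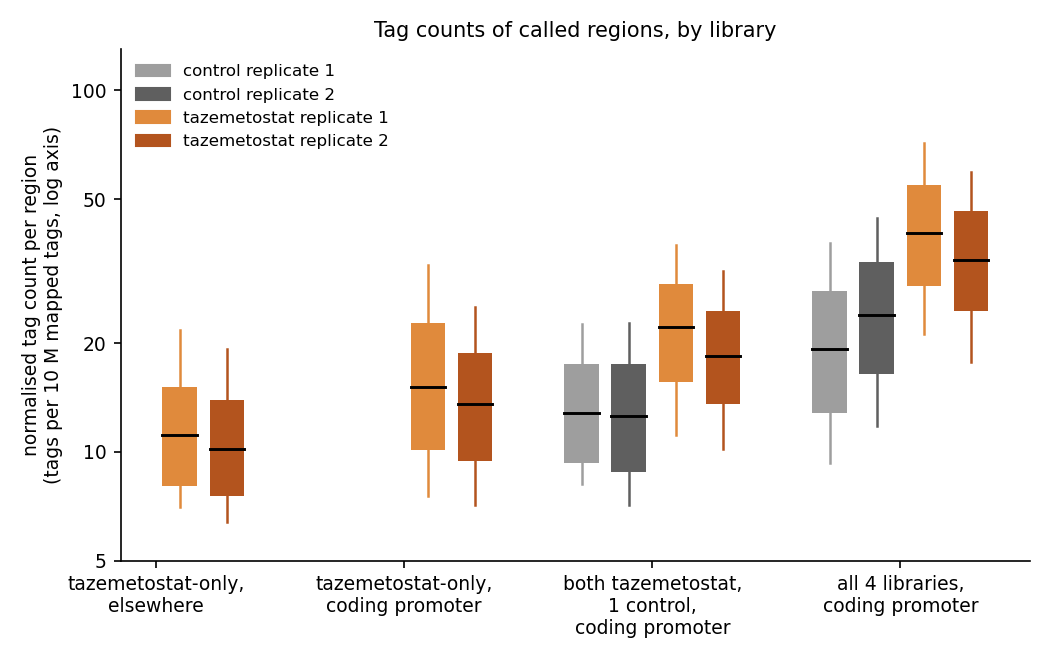
Normalised tag count (tags per 10 M mapped tags, log axis) of called regions in 4 sets, for each library with a peak there. Boxes span the 25th to the 75th percentile, whiskers the 10th to the 90th, and black lines are medians. The tazemetostat-only coding promoters, with medians of 15.1 and 13.6, sit below the coding promoters called in all 4 libraries, with medians of 40.3 and 33.9.

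The controls list values at their own peaks only, so the control level at these promoters is unknown. For a sense of scale, the median coding promoter peak was 16.9 in control replicate 1 and 18.5 in control replicate 2. In both tazemetostat libraries, 288 members (26.4%) exceeded the first value and 226 (20.8%) the second. The 10th percentile of control promoter peaks was 8.73 and 7.98, and 781 and 858 members exceeded it in both tazemetostat libraries. Values under tazemetostat were also higher at promoters called in all 4 libraries, with medians of 40.3 and 33.9 against 19.2 and 23.9 in the controls. These counts therefore do not show how members would rank in a control library.

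The peak caller also asked for at least 4-fold more tags than in the surrounding 10 kb, and many members passed this only just. The lower fold of the tazemetostat libraries was under 5 in 673 of 1089 members (61.8%). This share was 49.4% at promoters called in all 4 libraries and 40.4% in the tazemetostat-only regions elsewhere. A fold of at least 8 in both libraries was reached by 118 members. The fold was lowest where the tag count was highest. Of the 273 members with the lowest mean tag counts (6.1 to 10.2), 37.4% had a lower fold under 5, and of the 272 with the highest (20.7 to 82.3), 86.8%. Of these 272, 3 reached a fold of 8 in both libraries. The part of this step in the absence of control peaks was not tested.

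**Figure D2:**
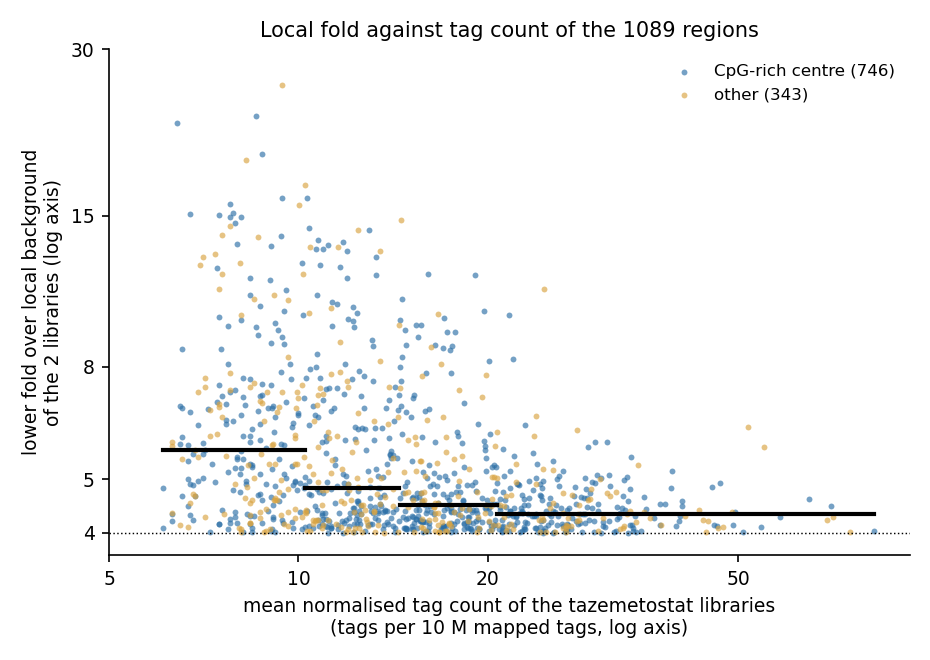
Lower fold over the local background of the 2 tazemetostat libraries (log axis) against the mean normalised tag count (log axis) of the 1089 regions, coloured by whether the centre was CpG-rich. Black bars mark the median fold in 4 groups of near-equal size by tag count, which falls from 5.66 to 4.33, and the dotted line marks the fold of 4 that a peak had to reach.

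To judge the replicate error, the whole tags of both tazemetostat libraries were compared in each region with a two-sided exact binomial test, Benjamini-Hochberg adjusted over the 38143 regions called in both. This compares libraries and not conditions. The expected split was that of mapped tags, of which 11.5% in replicate 1 and 9.81% in replicate 2 lay within peaks. Replicate 1 was higher in 25541 of the 38143 regions. Calls therefore include this general shift, and they are made more readily where tag counts are high. Of the 1089 members, 84 (7.71%) differed between the replicates, 76 of them higher in replicate 1, against 4.49% of all 38143 regions and 8.61% of promoters called in all 4 libraries. The median difference between replicates, regardless of sign, was 0.36 on the log2 scale, and 745 members were higher in replicate 1. A difference of this size is to be kept in mind for each pair of values below.

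**Figure D3:**
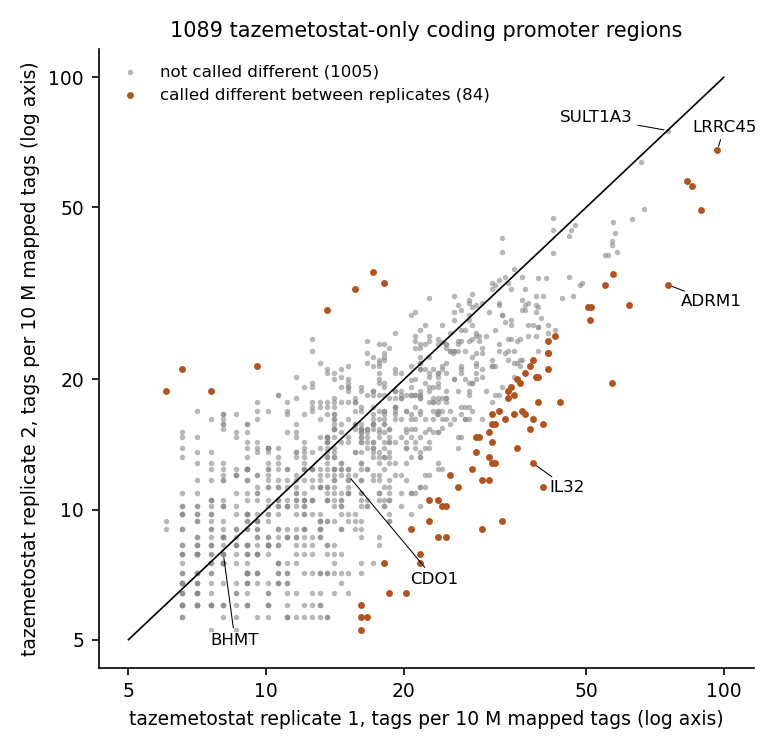
Normalised tag count of the 1089 regions in tazemetostat replicate 1 and replicate 2 (both log axes), with the line of equal values. The 84 regions called different between the replicates lie mostly below the line, where replicate 1 was higher, such as LRRC45, ADRM1 and IL32, while BHMT, CDO1 and SULT1A3 were not called different.

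The 12 members with the highest mean tag count belonged to genes of varied function. LRRC45, a linker protein of the centrosome, had 96.8 and 67.8 normalised tags in tazemetostat replicates 1 and 2, with a local fold of only 4.04 and 4.10. NR1D1, the circadian repressor REV-ERBα, had 89.2 and 49.3. ZFHX2, a homeobox gene that shares its region with the 5′ end of THTPA, had 83.1 and 57.6. In these 3 members the replicates differed by more than counting error (adjusted p = 0.0228, 9.45e-05 and 0.0336, exact binomial test). SULT1A3 had 75.6 and 75.3 and SULT1A4 had 85.2 and 56.1. These genes encode sulfotransferases and are near-identical copies, so tags could be split between them and both values are uncertain. The region at ENSG00000268173, which shares it with PIK3R2, a regulatory subunit of phosphoinositide 3-kinase, had 66.0 and 63.6.

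Among the remaining 6, the calpain CAPN10 had 67.0 and 49.7 and the peroxiredoxin PRDX5, which shares its region with TRMT112, had 63.0 and 47.0. ADRM1, a ubiquitin receptor of the proteasome, had 75.6 and 33.1 in a region 684 bp downstream of its 5′ end. A second ADRM1 region spanned the 5′ end. The kinase PLK3 had 57.4 and 46.3 and the anion exchanger SLC26A6 had 58.0 and 43.7. TRAPPC6B, a subunit of a vesicle tethering complex, had 56.9 and 41.8. In 5 of these 12 regions the replicates were called different, which high tag counts make easier, and in 10 the lower local fold was under 5. The nearest control peak lay between 3858 and 63928 bp away.

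The members with the lowest mean tag counts were at the limit of what was called. PRSS12, a serine protease gene, and MICA, a ligand of a natural killer cell receptor, each had 6.55 and 5.65, which is 13 and 15 tags, and PRSS12 had a second region of 13.6 and 13.2 over its 5′ end. OC90, an inner ear protein gene, had 6.55 and 6.02. The exact Poisson 95% interval of 13 tags, which covers counting error only, runs from 3.49 to 11.2 in normalised tags.

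The members with the sharpest peaks against their surroundings had few tags. The region at TAS2R14, a bitter taste receptor gene, also lay within 1 kb of the 5′ ends of PRH1 and SMIM10L1 and had a local fold of 22.8 and 34.5 with 11.1 and 6.02 normalised tags. The histone demethylase gene KDM5D had folds of 19.4 and 29.5 with 9.57 and 7.91 normalised tags. SPRY3, a Sprouty family gene, had folds of 17.1 and 19.4 with 12.6 and 7.91 normalised tags. The olfactory receptor genes OR4F21 and OR4F3 had folds of 25.9 and 31.0 and of 20.2 and 18.95, but OR4F copies are near-identical and their tags uncertain.

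The position of the regions relative to the gene start was examined next. The median distance of the centre was 4 bp downstream of the 5′ end, and 36.1% of centres lay in the 250 bp upstream and 27.2% within 250 bp downstream. The region spanned the 5′ end itself in 711 members (65.3%), against 79.2% of promoters shared with 1 control and 90.5% of promoters called in all 4 libraries. Centres beyond 500 bp made up a larger share of members than of promoters called in all 4 libraries, with 8.17% against 1.73% upstream and 14.7% against 6.37% downstream. At the 1 kb limit of the rule, PEX5 (1000 bp, 21.7 and 18.4 normalised tags) and COL9A2 (999 bp, 17.6 and 20) fell just inside. SLC16A10 (1001 bp, 10.1 and 6.78) and MAGED4B (-1002 bp, 14.1 and 7.53) fell just outside, although MAGED4B had another region inside the limit.

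**Figure D4:**
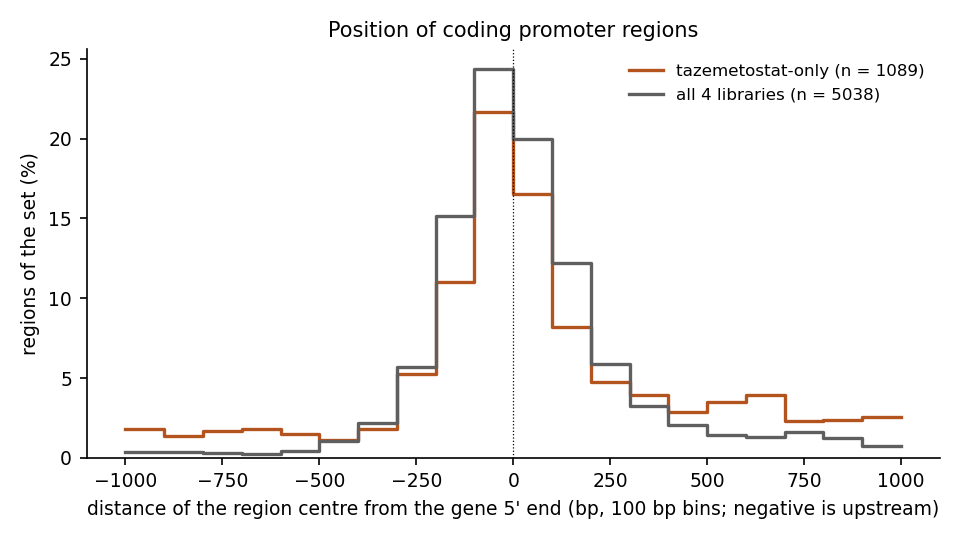
Distance of the region centre from the gene 5′ end in 100 bp bins, as the percentage of 1089 tazemetostat-only regions and of 5038 regions called in all 4 libraries. Both sets peak at the 5′ end, and the tazemetostat-only set has higher tails beyond 500 bp on either side.

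The distance to the nearest control peak is partly set by the rule, which allowed no control peak within a member. The median gap to the nearest control peak was 12386 bp, while 199 members (18.3%) had a control peak within 1 kb of their edge and 321 within 5 kb. At 76 members (6.98%), a region called in all 4 libraries lay within 1 kb of the same gene start, so that the member was a further region of an already open promoter. Of the 1202 genes, 912 (75.9%) had no control region at any start of a coding transcript, and 139 had a region called in all 4 libraries at any such start, their own included. Both counts depend on the rule, and neither was made over all coding genes. For scale, 43.3% of all 20033 coding genes had a region called in a control within 1 kb of the gene 5′ end. CDKN2A and CDKN2B, which encode inhibitors of cyclin-dependent kinases and are known polycomb targets, belonged to the genes with a control peak close by, at 669 and 191 bp. TGFBI, a secreted adhesion protein gene, had a region called in all 4 libraries at another start. Opposite-strand gene pairs shared 87 members (7.99%), and 192 members (17.6%) also lay within 1 kb of the start of a long noncoding RNA gene. These shares were not counted over other coding promoters, so they are no result about members.

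Some genes had tazemetostat-only regions at several places. There were 364 member genes (30.3%) with a further tazemetostat-only region in the gene or the 10 kb around it, and 98 with at least 3 in all. The same counts were not made over all coding genes, and the windows differed in length with the genes. They therefore do not show that such regions cluster at member genes. The most were 7 each at FRY and JAK1, genes of 452.4 and 234.5 kb, which also had 9 and 10 regions called in a control. Of all 1202 member genes, 360 (30.0%) had no region called in a control in the gene or the 10 kb around it. Of the 98 with at least 3 tazemetostat-only regions, 9 had none: ARHGEF17, C4orf19, CDO1, GPATCH2L, MBOAT4, MFGE8, OCLN, TES and ENSG00000248235. Among these, CDO1 had 3 such regions over a gene of 11.9 kb. The same number was found at the similarly short ENSG00000248235 (12.8 kb), MBOAT4 (13.0 kb) and MFGE8 (14.8 kb).

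The DNA sequence of the regions was not used by the rule. In the central 200 bp, 68.5% of members were CpG-rich (95% Wilson interval 65.7 to 71.2), defined as a GC content of at least 50% and an observed over expected CpG ratio of at least 0.6. The share was 7.66% (7.16 to 8.20) in tazemetostat-only regions elsewhere. It was 78.3% (76.4 to 80.2) at promoters shared with 1 control and 84.5% (83.5 to 85.5) at promoters called in all 4 libraries. Over all 20033 coding promoters, centred on the 5′ end, it was 59.4%. The share in members lay below that at promoters called in every library, but member centres lay more often beyond 500 bp of the 5′ end. In 500 bp around the gene 5′ end the share in members was 73.3%. The part of placement in the difference was not tested. The higher share than elsewhere follows from the choice of regions at gene starts. Intervals cover counting error over regions, which are not replicates.

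The 746 CpG-rich members and the 343 others differed in place more than in strength. Median tag counts were 16.1 and 13.6 in the CpG-rich members and 13.6 and 12.8 in the others. The centre lay a median of 119 bp from the 5′ end in the first and 299 bp in the second. The local folds were close, with medians of 5.32 and 4.91 against 5.35 and 4.96.

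Short motifs were searched in the central 200 bp. Within members, GGGCGG was found in 63.3% of CpG-rich and 22.7% of other centres, and the AP-1 motif TGANTCA in 1.21% and 11.4%. The split was not particular to members. At promoters called in all 4 libraries the shares were 64.2% and 30.9% for GGGCGG and 1.57% and 6.55% for AP-1. Over all coding promoters they were 68.5% and 15.2%, and 1.64% and 7.17%. In tazemetostat-only regions elsewhere, AP-1 was found in 2.75% and 10.8%. The SP/KLF motif GGGCGG was found in 50.5% of members, 59.1% of promoters called in all 4 libraries and 46.9% of all coding promoters. The NFY motif CCAAT was found in 20.9%, 34.3% and 25.96%, and the ETS motif CCGGAAG in 11.4%, 15.1% and 10.2%. NFY was found in 22.1% of promoters shared with 1 control, close to the share in members. Within CpG-rich centres the NFY share was 19.3% in members, 20.9% at promoters shared with 1 control and 33.6% at promoters called in all 4 libraries. In the other centres these shares were 24.5%, 26.6% and 38.0%. The CTCF core AGNGGGCGC, whose matches can overlap SP/KLF, was found in 5.88% of members, 5.37% of promoters shared with 1 control, 4.19% of promoters called in all 4 libraries and 3.62% of all coding promoters. TATAAA was found in 2.296% of members against 7.06% of all coding promoters, whose windows were centred on the start itself. These letters describe the windows and do not show that a factor was bound.

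The HNF4 motif CAAAGTNCA, of the factor that governs much of hepatocyte gene expression, was found in 16 members (1.47%), against 0.584% of all coding promoters and 4.93% of tazemetostat-only regions elsewhere. Of the 16, 14 were among members without a CpG-rich centre, where the share was 4.08%. In centres that were not CpG-rich it was 3.47% at promoters called in all 4 libraries, 2.56% at promoters shared with 1 control, 1.14% in all coding promoters and 5.27% elsewhere. Sites with 10 bases of sequence on either side are shown for ALB, SARDH, MYH7 and RAP1GAP, with capitals marking the match on the strand given. ALB had a pair of matches, at chr4:73397713-73397721 and chr4:73397727-73397735, both on the plus strand. The SARDH match was at chr9:133739998-133740006 and the RAP1GAP match at chr1:21669856-21669864, both on the minus strand. The MYH7 match was at chr14:23435904-23435912 on the plus strand. MYH7, a cardiac myosin gene, and RAP1GAP, a GTPase activator gene, were chosen for display after their values were seen.
ALB site 1: acagagattcCAAAGTTCAggcaccaaag
ALB site 2: gttcaggcacCAAAGTTCAgaccctaaca
SARDH site: accccttgtcCAAAGTGCAggttcattgt
MYH7 site: cggggtggctCAAAGTGCAgcaaaaatat
RAP1GAP site: agtccagagaCAAAGTCCAagagccgcga
The regions with these sites had 8.06 and 10.2 normalised tags at ALB, 33.3 and 27.1 at SARDH, 55.9 and 38.8 at MYH7 and 39.3 and 34.3 at RAP1GAP.

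To describe the gene classes, 32 lists of genes were counted against the 6.0% of all coding genes. Over all coding genes, 29.6% had a promoter region called in all 4 libraries and 43.3% had one in at least 1 control. There were 16 lists above this share and 4 without a member. Lists are described by counts only, since a share near the background is no result about the list.

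Genes of methionine and cysteine metabolism held 7 members of 30 (23.3%). The study is about these genes, so the list is not independent of the data. In the methionine cycle, GNMT, which spends S-adenosylmethionine on glycine, had 31.2 and 32.4 normalised tags and local folds of 4.01 and 4.25. SARDH, the mitochondrial enzyme that takes up its product sarcosine, had 33.3 and 27.1. MAT1A, the liver enzyme that makes S-adenosylmethionine, had 30.7 and 13.2 and its replicates differed (adjusted p = 0.00427, exact binomial test). BHMT, which remethylates homocysteine with betaine, had the lowest counts of the study's genes, at 8.06 (exact Poisson 95% interval 4.61 to 13.1) and 7.91 (4.89 to 12.1). This is 16 and 21 tags, with folds of 4.17 and 4.24 just above the minimum, in a region spanning the 5′ end at chr5:79111595-79112127.

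CDO1, which oxidises cysteine, had 15.1 (10.2 to 21.6) and 12 (8.24 to 17.0), in a region spanning its 5′ end at chr5:115816187-115817062 with folds of 4.53 and 4.48. NNMT, which methylates nicotinamide, had 15.1 and 14.3, and GADL1, a decarboxylase gene, had 7.05 and 6.02. Control peaks lay 41682 bp from the BHMT region and 24334 bp from that of CDO1, but 575 bp from that of MAT1A and 1246 bp from that of SARDH. Of the 30 genes, 14 had a promoter called in all 4 libraries. When the strongest peaks were taken in equal numbers from each library, 3 genes of the list remained members (10.0%), against 2.97% of all coding genes: GNMT, SARDH and MAT1A. BHMT, CDO1 and AIFM2 were then no longer members, and none of them was a member when peaks needed a local fold of 8.

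Of 28 genes of ferroptosis control, a form of cell death by lipid peroxidation, 3 were members (10.7%). With equal numbers of peaks the list held 1 member (3.57%), near the 2.97% of all coding genes. GPX4, which reduces lipid peroxides, had 27.7 and 30.5. AIFM2, also known as FSP1, which regenerates coenzyme Q as a lipid antioxidant, had 13.6 and 14.7 with a control peak 1243 bp away. ACSL4, which activates polyunsaturated fatty acids, had 10.1 and 7.91 with local folds of 11.5 and 15.8. All 3 were CpG-rich at the centre.

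Plasma proteins made by the liver held 6 members of 56 (10.7%), none of them CpG-rich. PROC, the anticoagulant protein C, had 42.3 and 44.4, and F7, coagulation factor VII, had 28.7 and 29.7. HAMP, the iron hormone hepcidin, had 21.7 and 26 in a region centred at -599 bp. APOA5 had 24.7 and 18.1 near the 1 kb limit at 961 bp, the complement regulator CFI had 9.07 and 9.79, and ALB had 8.06 and 10.2 at 643 bp downstream. None of these 6 was called different between the replicates. Of 24 hepatocyte transcription factors, GATA6 was the only member with 13.6 and 10.5. Cytochrome P450 genes held 3 members of 57, with CYP46A1 at 14.1 and 20, CYP2J2 at 10.6 and 18.4 and CYP4F8 at 14.1 and 6.4. Conjugating enzymes held 4 of 53, the SULT1A copies, SULT1C4 at 16.1 and 11.7 and UGT2B10 at 9.07 and 15.8. There was no member among 36 genes of bile acids and sterols or 11 of the urea cycle, in which 21 (58.3%) and 6 genes (54.5%) had a promoter region in at least 1 control, against 43.3% of all coding genes.

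Developmental regulators, the best-known targets of polycomb, were mixed. The homeobox list held 10 members of 165, which is 6.06% and near the background, all CpG-rich. OTX1, a head and brain patterning gene, had 62.0 and 29.7, called different between the replicates (adjusted p = 9.24e-05, exact binomial test), and DLX2 had 25.2 and 25.6. The pancreatic regulator PDX1, chosen after its values were seen, had 11.6 and 10.5. SOX, T-box, GATA, RUNX and FOX factors held 9 of 89 (10.1%). FOXP4 had 38.3 and 26.7, SOX4 had 30.2 and 25.2, and FOXO6 had 31.7 and 18.4 in a region centred at -839 bp. A promoter called in all 4 libraries was found at 5.45% of homeobox genes and 8.99% of the second list, against 29.6% of all coding genes. Wnt, BMP, GDF and FGF ligands held 2 of 76, with BMP8A at 17.1 and 14.3 and FGF18 at 12.1 and 12.4.

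Zinc finger genes formed the largest class, with 53 members of 555 (9.55%), of which the pair ZNF646 and ZNF668 shared a region between opposite strands. That region had 42.3 and 39.2, and ZNF341 had 44.3 and 30.9. On chromosome 19, where many zinc finger genes are clustered, 19 of 258 were members (7.36%). Of the zinc finger genes, 43.6% had a promoter called in all 4 libraries, against 29.6% of all coding genes.

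Housekeeping classes were also represented. Cytosolic ribosomal proteins held 10 members of 88 (11.4%), all CpG-rich. RPS15 had 29.7 and 20.3, RPL39 had 29.7 and 16.2 and RPL8 had 22.7 and 20.7. RPS18, chosen after its values were seen, had 10.1 and 5.65 with local folds of 21.6 and 15.2. Mitochondrial ribosomal proteins held 5 of 78, with MRPS15 at 24.2 and 16.9, MRPL3 at 17.1 and 18.4 and MRPS2 at 15.1 and 20. Respiratory chain genes held 7 of 95, with NDUFB1 at 22.2 and 13.9, NDUFB7 at 12.6 and 19.6 and NDUFA8 at 15.1 and 11.7. The proteasome held 3 of 48, with PSMD1 at 37.8 and 15.4 (called different, adjusted p = 0.000591, exact binomial test), PSMG2 at 14.1 and 13.9 and PSMC1 at 9.07 and 6.4. Histone genes held 3 of 84, with H2BC4 at 37.3 and 25.2, H4C8 at 20.7 and 15.4 and H3C7 at 9.57 and 17.7. Glycolysis and gluconeogenesis held 2 of 35, ALDOC at 27.7 and 19.6 and the pyruvate kinase PKM at 16.1 and 14.3.

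Genes of membrane, signalling and keratin-related proteins lay near or below the background. Solute carriers held 21 of 380 (5.53%), with SLC26A6 given above, the zinc transporter SLC39A4 at 58.5 and 39.5 and SLC26A1 at 34.8 and 36.1. Ion channels held 11 of 250, with TRPV2 at 17.6 and 19.6, GRIK4 at 18.6 and 15.4 and CACNA1A at 17.1 and 15.4. G protein-coupled receptors held 17 of 266 (6.39%), with GPR137 at 51.4 and 29.4, ADGRG3 at 37.3 and 26.7 and GPR146 at 33.8 and 22.2. Olfactory receptors held 4 of 415 (0.964%), of which 3 were OR4F copies and OR5AU1 had 10.1 and 6.78. Clustered protocadherins, which give neurons their surface identity, held 3 of 53 and had no promoter called in all 4 libraries. PCDHB2 had 8.57 and 15.1, PCDHGB4 had 7.05 and 7.15 and PCDHB8 had 6.55 and 7.15. Genes of keratins and keratin-associated proteins held 3 of 149. These were the keratin KRT19 at 24.7 and 17.7 and the keratin-associated KRTAP5-7 at 10.6 and 10.5 and KRTAP2-3 at 8.06 and 7.53.

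The immune lists lay on both sides of the background. Cytokines and chemokines held 8 of 129 (6.202%), with IL32 at 38.3 and 12.8 (called different, adjusted p = 1.95e-05, exact binomial test), IFNL3 at 20.2 and 12.8 and CCL27 at 16.6 and 13.9. The interferon response list held 2 of 49 (4.08%), OAS3 at 19.1 and 17.3 and GBP3 at 8.06 and 8.66. Antigen presentation held 2 of 25 (8.0%), the peptide trimming enzyme gene ERAP2 at 20.7 and 13.2 and NLRC5, the activator of class I genes, at 14.1 and 15.4. Genes named for the germline held 9 of 202, with SPATA20 at 47.4 and 45.5, SPATA24 at 32.3 and 33.9 and SPATA33 at 36.8 and 16.6.

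Finally, regulators of growth and of chromatin were counted. Inhibitors of cyclin-dependent kinases held 2 of 17, CDKN2A at 10.6 and 6.78 and CDKN2B at 9.07 and 6.02, with the control peaks close by given above. With equal numbers of peaks neither remained a member, which put the list at 0% against 2.97% of all coding genes. The list of epithelial-mesenchymal transition and adhesion held 3 of 28 (10.7%), and 1 (3.57%) with equal numbers of peaks. ESRP2, an epithelial splicing regulator, had 34.3 and 24.8, TGFBI had 18.1 and 13.2, and OCLN, the tight junction protein occludin, had 11.1 and 10.2 with local folds of 28.5 and 13.0. There was no member among 18 genes of the insulin-like growth factor axis. Of 35 genes for subunits of polycomb complexes 1 and 2, none was a member, and 20 (57.1%) had a promoter region in at least 1 control library, against 43.3% of all coding genes.

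**Figure D5:**
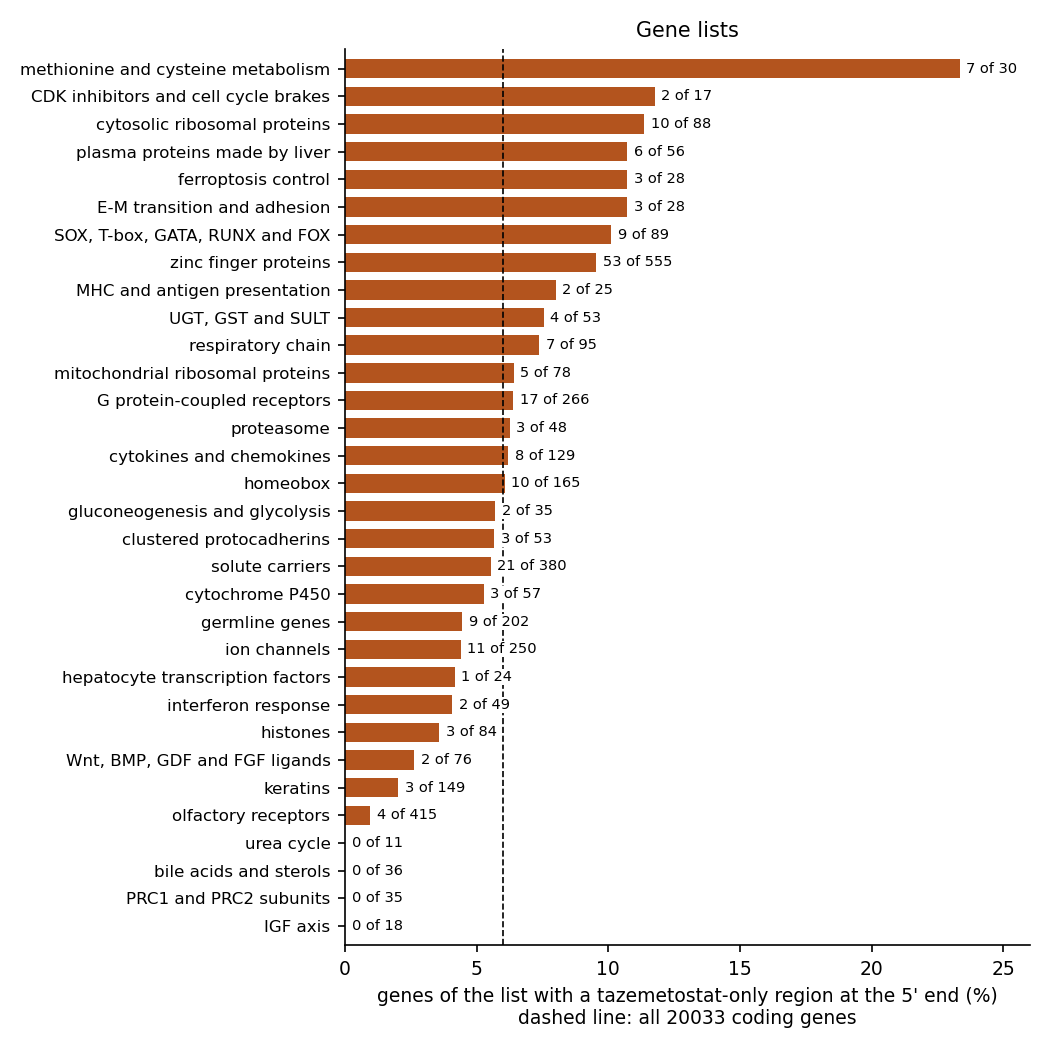
Percentage of the genes of each of 32 lists with a tazemetostat-only region at the 5′ end, with counts beside the bars. The dashed line marks the 6.0% over all 20033 coding genes. Methionine and cysteine metabolism, at 7 of 30, lies farthest to the right, most other lists lie within a few percent of the line, and 4 lists have no member.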

How the data were processed

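Peak lists from Omni-ATAC-seq of 2 untreated and 2 tazemetostat-treated HepG2 samples were analysed. Per the submitters' notes, reads were trimmed with Trim Galore 0.6.6, aligned to hg38 with Bowtie2 2.3.5.1 and peaks were called per library with HOMER 4.11.1. According to the headers of the deposited files, calling started from 300 bp peaks, joined into regions, at a false discovery rate of 0.001, a fold of 4 over the surrounding 10 kb and a Poisson p-value of 0.0001, with fragment lengths that differed between the groups. The deposited signal is a normalised tag count per 10 M mapped tags, and the deposited ratio is the fold over the local background. The deposited score, described in the headers as a peak caller value, and the deposited p-values were not used. Whole tags were recovered from the normalised counts within 0.25 of a whole number.

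Peaks were merged with Python 3.11.15 and assigned to gene 5′ ends of GENCODE release 44. The members and lists were chosen with earlier results of these data known. Named genes were BHMT, CDO1 and AIFM2, the 12 highest and 3 lowest tag counts, the 6 highest local folds, up to 3 genes per list and the regions nearest the 1 kb limit. NNMT, GADL1, APOA5, CFI, ALB, UGT2B10, RPS18, PDX1, MYH7, RAP1GAP and the genes with several tazemetostat-only regions fall outside this rule and were chosen after their values were seen. A region with several coding starts was named for the nearest. Of the 6 highest local folds, 1 is not reported here. CpG content and motifs were read from the central 200 bp. The promoter table of RefSeq held 920 of the 1202 member genes by symbol. Depth was 17.2 to 26.6 M mapped tags, and intervals cover counting error only. Only the tazemetostat replicates were compared with a test, the exact binomial test in SciPy 1.17.1, and the script was tested on simulated data. The controls list no value where no peak was called, so no test between the groups was made.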

Additional observations from a re-analysis of the deposited data

How the results depend on the processing

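The number of regions depended on which peaks were used. With peaks of a local fold of at least 8, the 1089 regions and 1202 genes became 270 and 305, and 118 of these regions overlapped one of the 1089. With the strongest peaks taken in equal numbers they became 513 and 595, and 422 of these regions overlapped. Leaving out each library in turn gave 1472 to 2511 regions and 1622 to 2754 genes. Each omission removes a condition of the rule, so a rise was built in and does not measure how robust the 1089 are. The counts were 2511 and 2754 without control replicate 2, 1729 and 1846 without tazemetostat replicate 1 and 2194 and 2317 without tazemetostat replicate 2. The median tag count of 14.45 was 30.8 per kb of peak and 13.6 to 15.1 when a tazemetostat replicate was left out. It was 18.4 in the 270 regions from peaks of a local fold of at least 8. The CpG-rich share of 68.5% was 73.3% in 500 bp around the gene 5′ end. It was 78.2% in the same 270 regions, which are largely other regions than the 1089. Of the 118 members with a fold of at least 8 in both libraries, 85 were CpG-rich. The share at genes with a region called in all 4 libraries was 11.3% within 5 kb. Under the other settings for overlap, distance, transcript starts and nearby control peaks, regions numbered 840 to 1526 and genes 941 to 1596. With equal peaks, 14 lists in place of 16 lay above the share of all coding genes, and 11 lists did so in both. The 5 that fell below were CDK inhibitors, antigen presentation, respiratory chain, proteasome and cytokines, and the 3 that came above were interferon response, solute carriers and glycolysis. No paired analysis was possible because the results come from no test and the controls list no value at these regions. Depth limits the weakest members. The lowest tag count of a member was 12 tags in tazemetostat replicate 1 and 14 in replicate 2.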
